A study of Mus musculus with 12 samples.

Results

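Kupffer cells, the resident macrophages of the liver sinusoids, and macrophages in general were followed through 10 genes in mouse liver during the first day after removal of 2/3 of the organ (partial hepatectomy). The genes were Csf1r, Adgre1, Vsig4, Clec4f, Cd5l, Timd4, Cd163, Marco, Cd14 and Cd68, found by matching the RefSeq accession of each array probe to a mouse gene reference table. 9 of the 10 had a probe matched this way, 1 each, among 17002 named genes with a kept probe. No value is given for Cd68, which the match did not find. The samples were fresh liver of male wild-type C57BL/6 mice, 6 weeks old, at 0, 1.5, 12 and 24 h after the operation, with 3 mice at each time and 1 array per mouse. RNA came from liver tissue as a whole, so fewer macrophages and less RNA per macrophage cannot be told apart. Sham operations are not represented among the samples, so effects of lost tissue and of the surgery itself cannot be told apart. If all operations began at the same hour, they cannot be told apart from the daily rhythm at 12 h either, since the labels give no time of day.

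Kupffer cells line the sinusoids and take up bacteria, old red blood cells and cell debris from portal blood. They depend on signals through the CSF1 receptor, and carry a set of uptake receptors that few other liver cells make. After partial hepatectomy in rodents they are known as a source of cytokines that prime hepatocytes to divide, and monocytes and neutrophils enter the remnant in the same period.

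The promoters of 3 members are shown because their RNAs went 3 ways at 12 h: Marco higher, Vsig4 lower and Clec4f without a call. Each line runs 5′ to 3′ on the gene's own strand, from 250 bases before to 50 bases after the annotated start, taken from RefSeq on GRCm38.p6. Capitals mark matches on either strand to the macrophage factor PU.1's core (GAGGAA), an NF-kB site (GGG, any pair of bases, then TTTCC) and the core bound by the Notch factor RBPJ (TGGGAA), and no AP-1 site (TGANTCA) or STAT site (TTCNNNGAA) matched in these 3 windows. Entries were found for 7 of the 10 genes.
Marco, chr1:120504975-120505274, minus strand: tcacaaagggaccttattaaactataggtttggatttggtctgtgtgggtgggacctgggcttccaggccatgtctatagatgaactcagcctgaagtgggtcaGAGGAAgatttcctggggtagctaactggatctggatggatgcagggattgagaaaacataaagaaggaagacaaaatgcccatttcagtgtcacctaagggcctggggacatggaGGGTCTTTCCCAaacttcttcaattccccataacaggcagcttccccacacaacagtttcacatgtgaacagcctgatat
Vsig4, chrX:96293389-96293688, minus strand: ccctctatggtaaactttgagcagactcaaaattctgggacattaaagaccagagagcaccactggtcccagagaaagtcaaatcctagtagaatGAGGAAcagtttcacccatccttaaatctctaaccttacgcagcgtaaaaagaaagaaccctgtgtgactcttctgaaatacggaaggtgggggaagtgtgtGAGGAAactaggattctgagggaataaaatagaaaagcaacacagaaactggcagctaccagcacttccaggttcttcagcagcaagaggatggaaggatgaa
Clec4f, chr6:83656067-83656366, minus strand: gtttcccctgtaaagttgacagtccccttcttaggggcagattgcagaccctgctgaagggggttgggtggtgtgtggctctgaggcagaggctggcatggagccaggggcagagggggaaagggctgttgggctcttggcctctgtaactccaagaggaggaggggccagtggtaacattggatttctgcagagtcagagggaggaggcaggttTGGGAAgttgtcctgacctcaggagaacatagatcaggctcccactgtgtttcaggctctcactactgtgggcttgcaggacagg

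The Marco promoter held the PU.1 core from base -146, counted from the start, and an NF-kB match, GGGTCTTTCC, from base -30. A reversed RBPJ core (TTCCCA) from base -24 overlapped the NF-kB match. Vsig4 held the PU.1 core from bases -155 and -53, and Clec4f held the RBPJ core from base -35. Among 32851 promoters of this length, 28.3% held the PU.1 core, 25.6% the RBPJ core, 8.3% the STAT site, 7.81% the AP-1 site and 1.63% the NF-kB site. These are matches of letters, and no binding was measured.

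Each array's processed spot intensities were put on a log2 scale and its 75th percentile was subtracted. The result is called the normalized log2 signal, and a value for 1 probe is not comparable with another probe's. All 9 probes were called well above background on all 12 arrays. Between 62.8% and 85.4% of spots were above background, and no spot was saturated. The 24 h replicate 2 array stood apart: its 75th percentile was 6018, against 428 to 584 on the other 11, it had 540 outlier spots, against 19 to 40, and its correlation with another 24 h array fell to 0.906. Results for the 9 genes, and counts for the other lists where they moved, are therefore given with all 12 arrays and without it. Arrays that shared a scan time in the file headers were taken as 1 slide, which gave 4 slides. Positions did not repeat within a slide, and slide identity was not checked further. Slide 1 held the 0 h arrays and 1.5 h replicate 1, slide 2 the other 1.5 h arrays with 12 h replicates 1 and 2, slide 3 held 12 h replicate 3 with 24 h replicates 1 and 3, and 24 h replicate 2 was alone. No slide held 0 h beside 12 or 24 h. Spots above background were 82.0% to 85.4% on the arrays of slide 2 and 62.8% to 72.4% on all others.

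Differences were tested with limma over all 31168 kept probes, at a Benjamini-Hochberg adjusted p under 0.05. At 1.5 h against 0 h none of the 9 genes passed, where 0.0225% of all probes did. Unadjusted, 1 of the 9, Cd14, had a p under 0.05. At 12 h against 0 h 2 genes were higher (Marco, Cd14) and 2 lower (Csf1r, Vsig4), where 15.3% of all probes passed, 7.06% higher and 8.26% lower. For 24 h against 0 h 2 were higher (Marco, Cd14) and none lower, with 5.46% of all probes past the threshold, 2.84% higher and 2.62% lower. Between 24 h and 12 h, 3 were higher at 24 h (Adgre1, Vsig4, Cd163) and 1 lower (Cd14), with 13% of all probes past it, 6.26% higher and 6.78% lower. Groups did not overlap in 12 h against 0 h for 61.4% of all probes, 20.8% lower and 40.6% higher, and for 4 of the 9 genes lower (Csf1r, Vsig4, Adgre1, Cd5l) and 2 higher. In the other comparisons the groups of 25.6% (1.5 h against 0 h), 26.1% (24 h against 0 h) and 40.8% (24 h against 12 h) of all probes did not overlap. Among the 9 genes these were Cd14 in the first, and Marco, Cd163 and Cd14 in the second, all higher. In the last they were Csf1r, Vsig4, Adgre1 and Cd163, higher at 24 h, and Clec4f, lower. The F test over 1.5, 12 and 24 h against 0 h passed 4 genes (Cd14, Marco, Adgre1, Vsig4) and 16.2% of all probes.

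Without 24 h replicate 2, Cd14 was higher at 1.5 h than at 0 h, the only gene of the 9 past the threshold, where 0.594% of all probes passed, 0.507% higher and 0.0866% lower. Then 2 genes were higher and 4 lower (Adgre1 and Cd5l in addition) in 12 h against 0 h, where 49.2% of all probes passed, 32.6% higher and 16.6% lower. The count for 24 h against 0 h was 2 higher, of 17% of all probes that passed, 10.3% higher and 6.67% lower. For 24 h against 12 h it was 4 higher and 1 lower, of 15.8% that passed, 8.37% higher and 7.4% lower. The F test passed 6 of the 9 genes and 44.3% of all probes.

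Median log2 fold changes of the 9 genes with all arrays were 0.31 for 1.5 h, -0.59 for 12 h and 0.38 for 24 h, each against 0 h, and 1.03 for 24 h against 12 h. The medians that include 24 h were 0.96 against 0 h and 1.13 against 12 h without 24 h replicate 2. Over all kept probes the medians were 0.17, 0.42, -0.15 and -0.49, and over coding probes 0.075, 0.24, -0.058 and -0.14. Leaving out 24 h replicate 2, the median of 24 h against 0 h changed sign, to 0.13 over all probes and 0.11 over coding probes, and that of 24 h against 12 h was -0.22 and -0.084.

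**Figure D1:**
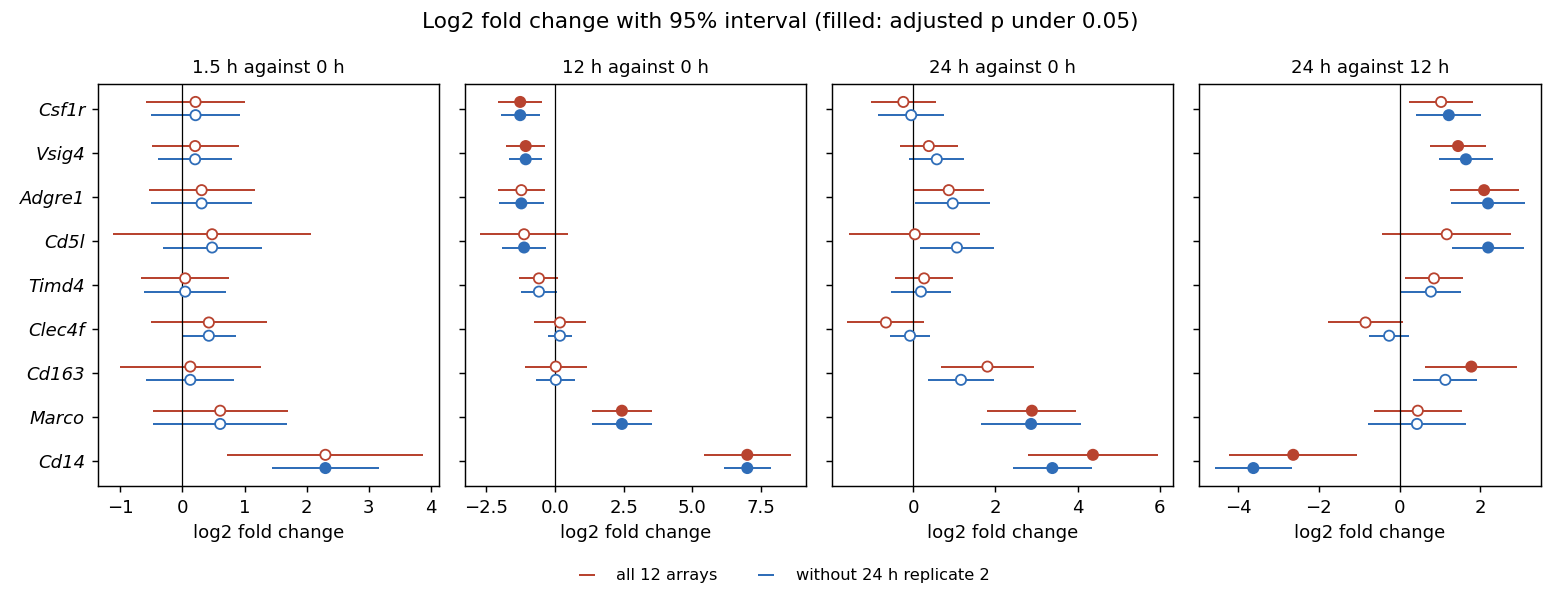
Log2 fold change of each gene (rows) in 4 comparisons (panels), with the 95% interval from limma, for all 12 arrays (red) and without 24 h replicate 2 (blue). Filled points had an adjusted p under 0.05. At 12 h Csf1r, Vsig4, Adgre1 and Cd5l lie left of 0 and Marco and Cd14 right of it, and at 24 h against 12 h the first 4 lie right of 0. The horizontal scale differs between panels.

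Csf1r encodes the receptor for CSF1 and IL-34, on which macrophage survival depends. Its normalized log2 signals were 2.70, 3.43 and 2.54 at 0 h, 3.65, 2.89 and 2.75 at 1.5 h, 1.67, 1.46 and 1.72 at 12 h, and 3.26, 2.26 and 2.42 at 24 h, for replicates 1 to 3. All 3 arrays at 12 h lay below every array of the other times, and the other 3 times overlapped. At 12 h Csf1r averaged 1.62 ± 0.14, against 2.89 ± 0.47 at 0 h (SD, n = 3 each), a 2.41-fold lower level (log2 -1.27 ± 0.36 SE, adjusted p = 0.0381). Between 24 and 12 h the difference was 1.03 ± 0.36 (adjusted p = 0.0717), and 1.22 without 24 h replicate 2 (adjusted p = 0.0462). The 24 h arrays overlapped those at 0 h (log2 -0.24, adjusted p = 0.732).

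Adgre1 encodes F4/80, an adhesion receptor used as the general surface marker of mouse macrophages. It gave -1.26, -0.48 and -1.30 at 0 h, 0.0043, -1.0 and -1.11 at 1.5 h, -2.29, -2.20 and -2.24 at 12 h, and 0.50, -0.34 and -0.60 at 24 h on the normalized log2 scale. The 12 h arrays were again the lowest 3 and lay close together. Adgre1 was 2.34-fold lower at 12 h than at 0 h without passing the threshold (log2 -1.23 ± 0.39, adjusted p = 0.0552), and passed it without 24 h replicate 2 (adjusted p = 0.0212). At 24 h it was 4.26-fold above 12 h (log2 2.09 ± 0.39, adjusted p = 0.013), and 2.19 on the log2 scale without 24 h replicate 2 (adjusted p = 0.00865). Leaving out 12 h replicate 1 ended that call (adjusted p = 0.0651). Against 0 h, 24 h was 0.86 higher on the log2 scale (adjusted p = 0.232), with 1 of the 24 h arrays inside the range at 0 h.

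Vsig4 encodes CRIg, the complement receptor with which Kupffer cells catch opsonized bacteria from blood. Its normalized log2 signals were 2.22, 2.69 and 2.19 at 0 h, 2.98, 2.48 and 2.25 at 1.5 h, 1.02, 1.43 and 1.45 at 12 h, and 3.31, 2.36 and 2.57 at 24 h. The 12 h arrays lay apart below all others. Vsig4 averaged 1.30 ± 0.24 at 12 h and 2.37 ± 0.28 at 0 h (SD, n = 3 each) and was 2.10-fold lower (log2 -1.07 ± 0.32, adjusted p = 0.0453). At 24 h it was 2.73-fold above 12 h (log2 1.45 ± 0.32, adjusted p = 0.0229; 1.64 and 0.00806 without 24 h replicate 2). That call ended without 12 h replicate 1 (adjusted p = 0.106) or 12 h replicate 2 (adjusted p = 0.0546). The 24 h level overlapped 0 h (log2 0.38, adjusted p = 0.529).

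Cd5l encodes a secreted scavenger protein, also called AIM, that macrophages release and that travels bound to IgM. It gave 0.78, 1.67 and 0.62 at 0 h, 1.90, 1.26 and 1.34 at 1.5 h, -0.13, -0.18 and -0.0021 at 12 h, and 2.72, -0.99 and 1.46 at 24 h. The value of -0.99, from 24 h replicate 2, was the lowest of all 12 arrays, while the other 2 arrays at 24 h lay above all 12 h arrays. With all arrays no comparison of Cd5l passed (12 h against 0 h: log2 -1.13, adjusted p = 0.287). Without 24 h replicate 2 it was lower at 12 h than at 0 h (adjusted p = 0.0267) and 2.19 higher on the log2 scale at 24 h than at 12 h (adjusted p = 0.00798), and at 24 h against 0 h the difference was 1.06 (adjusted p = 0.0972).

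The 12 h calls of Csf1r and Vsig4 depended on single arrays. Csf1r kept its call in 4 of 12 fits that left out 1 array each, with adjusted p between 0.0108 and 0.144, and lost it without any 1 of the 0 h or 12 h arrays or of 1.5 h replicates 2 and 3. Vsig4 kept its call in 3 of 12 (adjusted p 0.0105 to 0.157) and lost it also without 24 h replicate 3. With slide as a block, which ties 12 h to 0 h through 1.5 h replicate 1 alone, the 12 h differences were -0.49 for Csf1r (adjusted p = 0.661), -0.52 for Vsig4 (0.565), -0.17 for Adgre1 (0.909) and -0.58 for Cd5l (0.686). Within slide 2, which holds 2 arrays of each time, 12 h was below 1.5 h by log2 differences of -1.26 for Csf1r, -1.14 for Vsig4, -1.18 for Adgre1 and -1.46 for Cd5l. Within slide 3, 2 arrays at 24 h exceeded the single 12 h array by 1.11, 1.49, 2.19 and 2.09 for the same genes. On slide 1 the single 1.5 h array exceeded the mean of the 3 arrays at 0 h by 0.76, 0.62, 1.02 and 0.88.

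Timd4 encodes a receptor for phosphatidylserine on dying cells and marks long-lived resident macrophages in mice. Its normalized log2 signals were -2.12, -1.79 and -2.21 at 0 h, -1.54, -2.21 and -2.23 at 1.5 h, -2.90, -2.14 and -2.83 at 12 h, and -1.46, -1.62 and -2.24 at 24 h. 2 of the 3 arrays at 12 h were the lowest of all, and the third lay among those of the other times. No comparison passed with all arrays: the log2 difference was -0.59 at 12 h against 0 h (adjusted p = 0.224) and 0.85 at 24 h against 12 h (adjusted p = 0.0842). The second difference passed without 24 h replicate 3 (1.08, adjusted p = 0.0376).

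Clec4f encodes a galactose-binding lectin that in mice is made by Kupffer cells and hardly by other macrophages. It gave -0.08, 0.27 and -0.33 at 0 h, 0.18, 0.55 and 0.42 at 1.5 h, 0.16, 0.26 and -0.011 at 12 h, and -0.069, -1.88 and -0.18 at 24 h. The 0, 1.5 and 12 h arrays overlapped, and the only array outside their range was 24 h replicate 2. All 24 h arrays lay below all 12 h arrays, by little apart from 24 h replicate 2. In that comparison the groups of 40.8% of all probes did not overlap. At 12 h against 0 h the log2 difference was 0.18 with a 95% interval of -0.76 to 1.12 (adjusted p = 0.77), or -0.26 to 0.62 without 24 h replicate 2. An interval this wide with all arrays does not show an unchanged level. At 24 h the differences were -0.67 from 0 h (adjusted p = 0.403) and -0.84 from 12 h (0.154), and -0.080 and -0.26 without 24 h replicate 2.

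Cd163 encodes the receptor that takes up hemoglobin bound to haptoglobin. Its normalized log2 signals were -3.48, -2.75 and -2.93 at 0 h, -2.35, -3.40 and -3.02 at 1.5 h, -2.86, -2.71 and -3.50 at 12 h, and -1.69, 0.041 and -2.09 at 24 h. All 3 arrays at 24 h lay above every other array, with replicate 2 far above the other 2. Cd163 was 3.43-fold higher at 24 h than at 12 h (log2 1.78 ± 0.52, adjusted p = 0.0475), a call lost without 24 h replicate 2 (1.13, adjusted p = 0.0558). It was kept in 2 of the 12 fits that left out 1 array, those without 1.5 h replicate 1 or 24 h replicate 3 (adjusted p over the 12 from 0.0239 to 0.139). Against 0 h the 24 h difference was 1.81 (adjusted p = 0.0702), and 1.16 without 24 h replicate 2 (adjusted p = 0.0502).

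Marco encodes a scavenger receptor for bacteria and particles. It gave 1.20, 2.67 and 1.21 at 0 h, 3.10, 2.06 and 1.74 at 1.5 h, 4.25, 3.42 and 4.73 at 12 h, and 4.70, 4.62 and 4.42 at 24 h. The 12 and 24 h arrays overlapped each other, and all 6 lay above the 0 and 1.5 h arrays, which overlapped too. Marco averaged 4.13 ± 0.66 at 12 h and 1.69 ± 0.85 at 0 h (SD, n = 3 each), a 5.42-fold rise (log2 2.44 ± 0.49, adjusted p = 0.00814). At 24 h it was 7.41-fold above 0 h (log2 2.89 ± 0.49, adjusted p = 0.00944), and the difference between 24 and 12 h was within the spread (0.45, adjusted p = 0.481). Both rises passed without 24 h replicate 2 (adjusted p = 0.00363 at 12 h and 0.00851 at 24 h). The 24 h call was lost without 0 h replicate 1 (adjusted p = 0.0541). With slide as a block the differences were 3.35 at 12 h (adjusted p = 0.0536) and 3.18 at 24 h (0.266), and within slide 2 the 12 h arrays exceeded the 1.5 h arrays by 1.93.

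Cd14 encodes the coreceptor that hands bacterial endotoxin to the TLR4 complex. It is made by macrophages and monocytes, and in rodents also by neutrophils and by hepatocytes in an acute-phase response. Its normalized log2 signals were -1.33, -1.43 and -1.82 at 0 h, 1.15, 0.37 and 0.82 at 1.5 h, 6.15, 4.76 and 5.53 at 12 h, and 1.32, 4.82 and 2.40 at 24 h. Every array after surgery lay above all 0 h arrays, and the 12 h arrays were the highest apart from 24 h replicate 2, which lay among them.

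At 1.5 h Cd14 was 4.94-fold above 0 h (log2 2.30 ± 0.72), which did not pass over all probes (adjusted p = 0.632, unadjusted 0.00835) and passed without 24 h replicate 2 (adjusted p = 0.0359). At 12 h it averaged 5.48 ± 0.70, against -1.53 ± 0.26 at 0 h (SD, n = 3 each), a 129-fold rise (log2 7.01 ± 0.72, adjusted p = 0.000251). It passed in all 12 fits without 1 array and in all 11 other settings tried, slide as a block among them (7.54, adjusted p = 0.00485). At 24 h it was 20.7-fold above 0 h (log2 4.37, adjusted p = 0.00799), and 10.5-fold without 24 h replicate 2 (adjusted p = 0.00144), a call lost with slide as a block (3.86, adjusted p = 0.178). Cd14 fell at 24 h relative to 12 h by a log2 difference of -2.63 ± 0.72 (adjusted p = 0.0408), or -3.62 without 24 h replicate 2 (adjusted p = 0.00147). That call was kept in 3 of 12 fits without 1 array (adjusted p 0.00147 to 0.153), those without 1.5 h replicate 1 or 24 h replicate 2 or 3. With slide as a block, 24 h against 12 h rests on slide 3, where 12 h replicate 3 is the only 12 h array. In that fit 24 h replicate 2, alone on its slide, has no part in the difference. Within this limit the 4 calls of 24 h against 12 h were kept, for Adgre1 (2.19, adjusted p = 0.0326), Vsig4 (1.49, 0.0429), Cd163 (1.61, 0.0295) and Cd14 (-3.67, 0.0152). All 4 were lost with normexp background correction, which passed 191 of 31168 probes in that comparison. All 4 were also lost in a fit of only those 2 times, which passed 0 of all probes and so could keep no call.

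**Figure D2:**
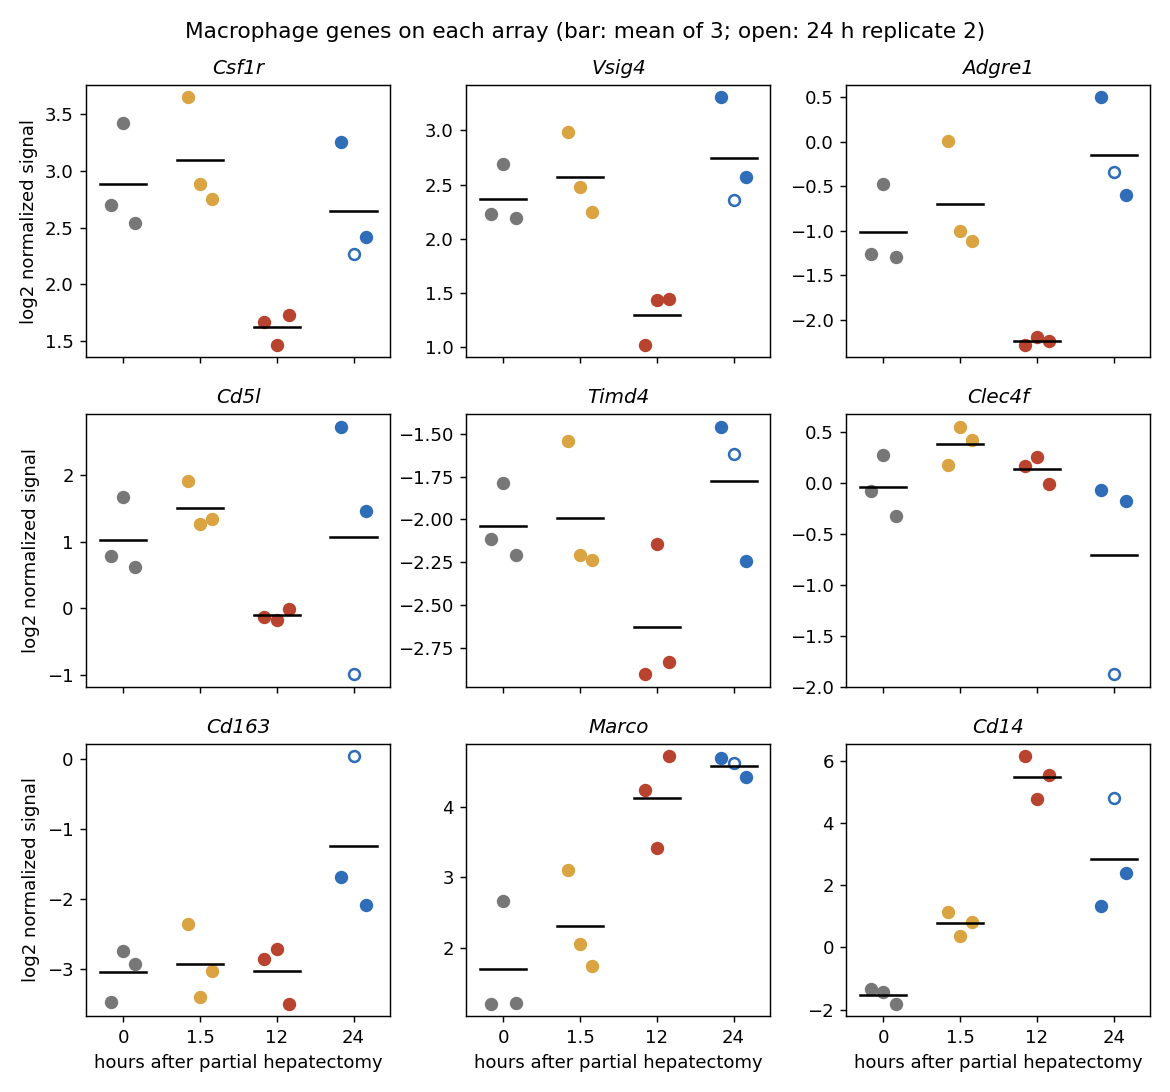
Normalized log2 signal of the 9 genes (1 panel each, with its own vertical scale) against hours after partial hepatectomy. Each point is 1 array, bars are means of 3, and the open point is 24 h replicate 2. The 12 h points of Csf1r, Vsig4 and Adgre1 lie below all others, those of Cd14 are the highest apart from the open point, and Marco is high at both 12 and 24 h.

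Ratios to Csf1r on the same array do not depend on the factor by which each array was scaled. They are given as a description, were chosen after the values were seen and carry no test, and only their course over time can be read. The log2 ratio of Adgre1 to Csf1r was -3.90 ± 0.059 at 0 h, -3.80 ± 0.14 at 1.5 h, -3.86 ± 0.17 at 12 h and -2.79 ± 0.21 at 24 h (SD, n = 3 each). All 3 arrays at 24 h, 24 h replicate 2 included, lay above the 9 earlier ones, whose ratios spanned -3.96 to -3.65. Vsig4 over Csf1r was -0.52 ± 0.20, -0.53 ± 0.13, -0.32 ± 0.31 and 0.10 ± 0.053 in the same order, with the 24 h arrays again above all others. Cd5l over Csf1r was -1.86 ± 0.094, -1.60 ± 0.17 and -1.72 ± 0.081 at 0, 1.5 and 12 h, and spread from -3.25 to -0.54 at 24 h, where the lowest value was that of replicate 2.

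Csf1r itself was lowest on the 12 h arrays, so a gene that did not move would also have its highest ratios there. How many of all probes do so was not counted. Clec4f, Cd163 and Timd4 were not called at 12 h against 0 h. The log2 ratio of Clec4f to Csf1r was -2.93 ± 0.20 at 0 h, -2.72 ± 0.65 at 1.5 h, -1.48 ± 0.27 at 12 h and -3.35 ± 0.77 at 24 h. Its 12 h arrays lay above all others. Marco over Csf1r was -1.20 ± 0.39, -0.80 ± 0.23, 2.51 ± 0.53 and 1.94 ± 0.46, and Cd14 over Csf1r was -4.41 ± 0.42, -2.32 ± 0.33, 3.87 ± 0.59 and 0.20 ± 2.25. Cd163 over Csf1r was -5.94 ± 0.40, -6.03 ± 0.26, -4.64 ± 0.53 and -3.89 ± 1.46, with all 12 and 24 h arrays above the earlier ones. Timd4 over Csf1r was -4.93 ± 0.25, -5.09 ± 0.10, -4.24 ± 0.55 and -4.42 ± 0.46. Its 12 and 24 h arrays also lay above the earlier ones, the lowest at 24 h (-4.72) close to the highest at 0 h (-4.75).

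**Figure D3:**
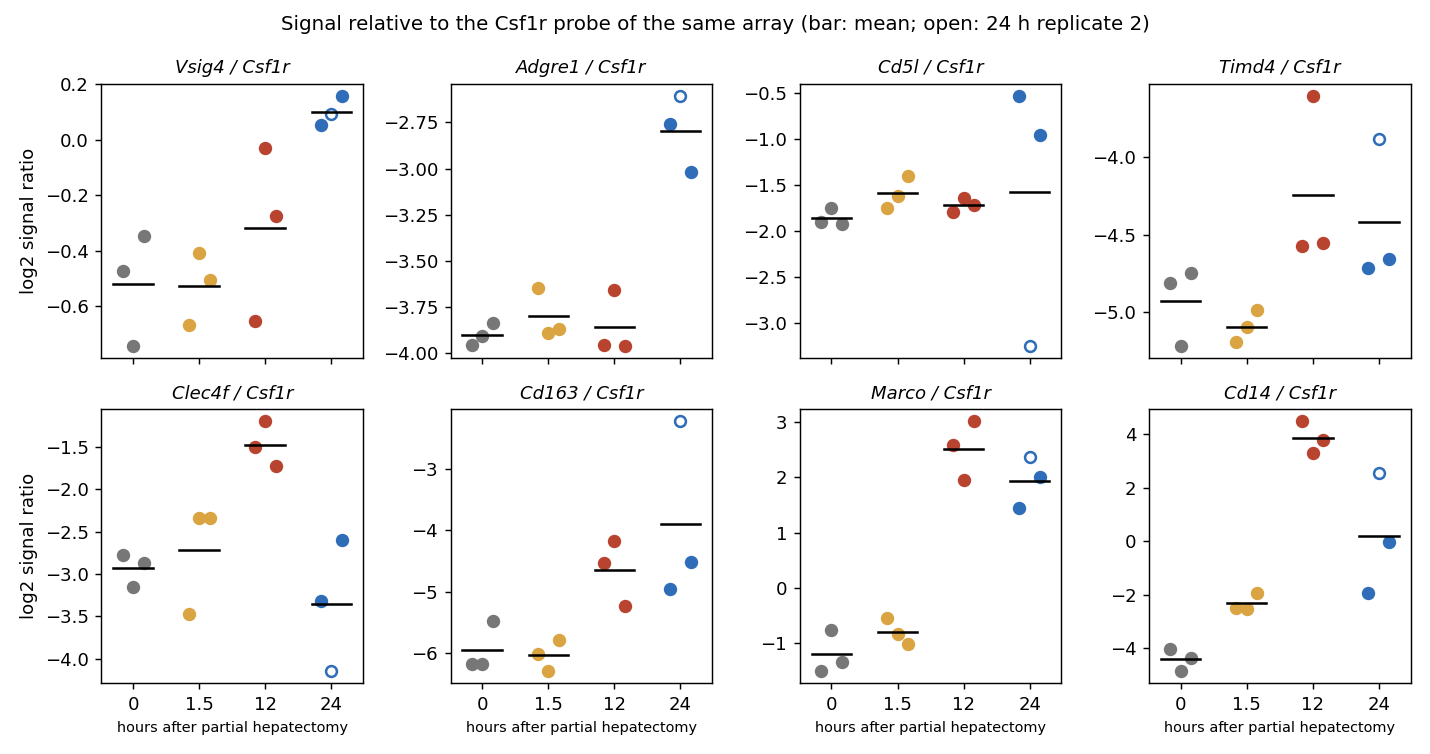
Log2 ratio of each gene's signal to the Csf1r signal of the same array (8 panels, each with its own vertical scale) against hours after partial hepatectomy. Points are arrays, bars means of 3, and the open point is 24 h replicate 2. Adgre1 and Vsig4 ratios are highest on the 3 arrays at 24 h, and the Clec4f ratio is highest on the 3 arrays at 12 h, where Csf1r itself is lowest.

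Other macrophage genes were counted over lists of textbook markers. Of 13 further Kupffer cell genes measured (of 14 listed), 1 rose and 1 fell at 12 h against 0 h, 1 rose at 24 h against 0 h and 3 rose at 24 h against 12 h. At 12 h against 0 h these 2 of 13 stand beside 15.3% of all probes. Without 24 h replicate 2 these counts were 2 and 3, then 3, and then 5 with 1 lower. In that fit 49.2%, 17% and 15.8% of all probes passed, in the same order of comparisons. Slc40a1, the iron exporter ferroportin, was 5.44-fold lower at 12 h than at 0 h (log2 -2.44 ± 0.23, adjusted p = 0.000168) and 4.63-fold higher at 24 h than at 12 h (adjusted p = 0.00167). Id3, a transcriptional regulator needed for Kupffer cell identity in mice, rose 3.42-fold at 12 h (adjusted p = 0.0101). Pcolce2 rose 2.38-fold at 24 h against 0 h (adjusted p = 0.0356) and 3.44-fold against 12 h (0.00858), and Nr1h3, the nuclear receptor LXR-alpha, rose 1.95-fold at 24 h against 12 h (0.0346). Hepatocytes make Nr1h3 and Slc40a1 RNA too. For the other genes of this list and the next, the cells that made the RNA were not identified.

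Among the 19 general macrophage genes, 1 rose and 4 fell at 12 h against 0 h, none passed at 24 h against 0 h and 4 rose at 24 h against 12 h. Their median log2 fold change was -0.56 at 12 h against 0 h, and 0.76 between 24 and 12 h. Aif1, the actin-binding protein IBA1, was 4.64-fold lower at 12 h than at 0 h (adjusted p = 0.00313), Mrc1, the mannose receptor, 2.15-fold lower (0.0231) and Mertk, a receptor for dying cells, 1.95-fold lower (0.0318). The riser was Lgmn, a lysosomal protease (1.89-fold, adjusted p = 0.0478). Relative to 12 h, at 24 h Mrc1 rose 2.82-fold (adjusted p = 0.013), Aif1 3.07-fold (0.0258) and the scavenger receptor Msr1 1.92-fold (0.0391), and Axl, which was not well above background on any 12 h array, passed as well. Without 24 h replicate 2 the counts were 2 higher and 6 lower at 12 h, 3 higher and 1 lower at 24 h, and 6 higher for 24 h against 12 h. Of all probes 49.2%, 17% and 15.8% passed in that fit, in the same order. With all arrays these shares were 15.3%, 5.46% and 13%.

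No gene on the recruited monocyte list was called lower. Relative to 0 h, 7 of 12 rose by 12 h and 7 of 12 by 24 h, and none passed at 24 h against 12 h, with all arrays and without 24 h replicate 2, except that 9 rose at 12 h in the second case. Of all probes 7.06% were called higher at 12 h and 2.84% at 24 h. Without that array the shares called higher were 32.6% and 10.3%. Chil3, a chitinase-like protein of monocytes and neutrophils, rose 4.23-fold at 12 h (adjusted p = 0.00197) and 8.39-fold at 24 h (0.000683). F13a1, the coagulation factor XIII A chain, rose 6.79-fold at 12 h (adjusted p = 0.00122) and 7.49-fold at 24 h (0.00236), with 2 of its 3 arrays at 0 h well above background. Itgam and Vcan passed at both times and were not well above background on any 0 h array. Their part in the rises of Marco and Cd14 was not tested.

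Markers of other cell types moved in the same hours. Beside the counts below stand the shares of all probes that passed, with all arrays and then without 24 h replicate 2. Against 0 h they were 0.0225% and 0.594% at 1.5 h, 15.3% and 49.2% at 12 h, and 5.46% and 17% at 24 h. At 24 h against 12 h they were 13% and 15.8%. Of 10 neutrophil genes measured, 2 were higher than at 0 h by 1.5 h, 7 by 12 h and 6 by 24 h, and without 24 h replicate 2 these counts were 4, 8 and 6. Their summed normalized signal ranged from 1.77 to 2.40 at 0 h, 8.51 to 11.7 at 1.5 h, 32.8 to 42.1 at 12 h and 27.9 to 43.8 at 24 h, where the highest without 24 h replicate 2 was 32.3. At 0 h 3 of the 10 neutrophil genes were not well above background on any array. S100a8, a subunit of calprotectin, was 30.6-fold higher at 12 h than at 0 h (adjusted p = 1.41e-05). Of 6 adipose genes, 5 rose at 12 h and 3 at 24 h, with sums of 17.6 to 21.8 at 12 h and 5.47 to 59.7 at 24 h, against 0.623 to 0.947 at 0 h. The 59.7 is 24 h replicate 2, and the highest sum at 24 h without it was 11.2, with 5 genes higher at 12 h and 4 at 24 h. At 0 h 3 of the 6 adipose genes were not well above background on any array. Cidec (log2 6.08 at 12 h against 0 h, adjusted p = 0.00382) gave the largest part of the sums at 12 h and on 24 h replicate 2. Adipoq was not called at 12 h against 0 h (log2 0.73, adjusted p = 0.158). Whether adipose cells made the RNA of this list was not tested. Endothelial genes (12 measured) gave 1 riser, Lyve1, and 1 faller, Kdr, at 12 h, Lyve1 as a riser at 24 h, and Kdr higher at 24 h than at 12 h. The endothelial counts without 24 h replicate 2 were 2 higher and 3 lower at 12 h, 2 higher at 24 h and 2 higher at 24 h against 12 h, Kdr not among the last 2. Their sums were 42.2 to 47.7 at 12 h and 46.7 to 58.4 at 24 h, against 47.8 to 52.2 at 0 h. Of the 7 dendritic cell and 8 lymphocyte genes measured, 1 of each fell by 12 h (Itgax, Ms4a1), and 1 of each by 24 h (H2-Aa, Cd2), relative to 0 h. Ms4a1 was well above background on 2 of 3 arrays at 0 h and on none at 12 h, and Itgax on 2 of 3 at 12 h. Of 9 hepatocyte genes 1 rose (Fgb) and 1 fell (Ttr) at 12 h, and 1 fell at 24 h (Ttr). In the fit without 24 h replicate 2, 2 lymphocyte genes were also higher at 12 h (Cd3e, Nkg7), and at 24 h against 0 h a second dendritic cell gene was lower (Clec9a) and Fgb was higher. The part of these cells in the macrophage gene results was not tested.

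The endotoxin route that Cd14 serves was followed through 12 other genes. Relative to 0 h, 6 rose by 12 h and 1 by 24 h, and none fell, and without 24 h replicate 2 the counts were 7 and 2. Of all probes 7.06% and 2.84% were called higher with all arrays, and 32.6% and 10.3% without that array. Lbp, the plasma protein that loads endotoxin onto CD14, rose 12.7-fold at 12 h (log2 3.67 ± 0.40, adjusted p = 0.000314) and 8.84-fold at 24 h (0.00188). The adaptor Myd88 rose 3.49-fold (adjusted p = 0.00473), the receptor Tlr2 2.95-fold (0.0192) and the kinase Irak4 1.80-fold (0.0224) at 12 h, and Irak3 and Ticam1 were the other risers. Tlr4 and its partner Ly96 passed in none of the 4 comparisons with all arrays.

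Of the genes that act with the other members, none of the 9 measured for the CSF1 receptor axis passed in any comparison with all arrays, and without 24 h replicate 2 there were 2 higher (Il34, Spi1) and 2 lower (Csf1, Zeb2) at 12 h and 1 higher at 24 h (Il34), each against 0 h. Csf1, a ligand of the receptor, was then also higher at 24 h than at 12 h (log2 1.25, adjusted p = 0.00694). With all arrays the closest at 12 h was Zeb2, a transcription factor of Kupffer cell identity (log2 -1.04, adjusted p = 0.0667), with 2 of 3 arrays well above background at either time. Among 8 genes of hemoglobin and heme clearance, the route of Cd163, Hmox1, which opens heme, rose 2.90-fold by 12 h (adjusted p = 0.0279) and 5.06-fold by 24 h (0.01) from its 0 h level, and Blvrb, a biliverdin reductase, fell 3.39-fold at 12 h (0.0487). That list without 24 h replicate 2 had 3 higher and 2 lower at 12 h and 2 higher and 1 lower at 24 h. Among 10 genes of apoptotic cell uptake, the route of Timd4, the bridging ligand Gas6 rose 3.46-fold (adjusted p = 0.0028) and the scavenger receptor Cd36 2.76-fold (0.00327) at 12 h. In the same list Itgb5, an integrin subunit, fell 4.50-fold at 12 h (adjusted p = 0.00947), with 2 of 3 arrays at 12 h well above background. Cd36 was the riser of that list at 24 h against 0 h, and Itgb5 and Mfge8 were higher at 24 h than at 12 h. Without 24 h replicate 2 the list had 5 higher and 4 lower at 12 h and 2 higher at 24 h, each against 0 h, and Itgb5 and Havcr1 were higher at 24 h than at 12 h. Beside the counts of these lists stand the shares of all probes that passed without that array. They were 49.2% at 12 h against 0 h, 17% at 24 h against 0 h and 15.8% at 24 h against 12 h. With all arrays the shares were 15.3%, 5.46% and 13%.

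**Figure D4:**
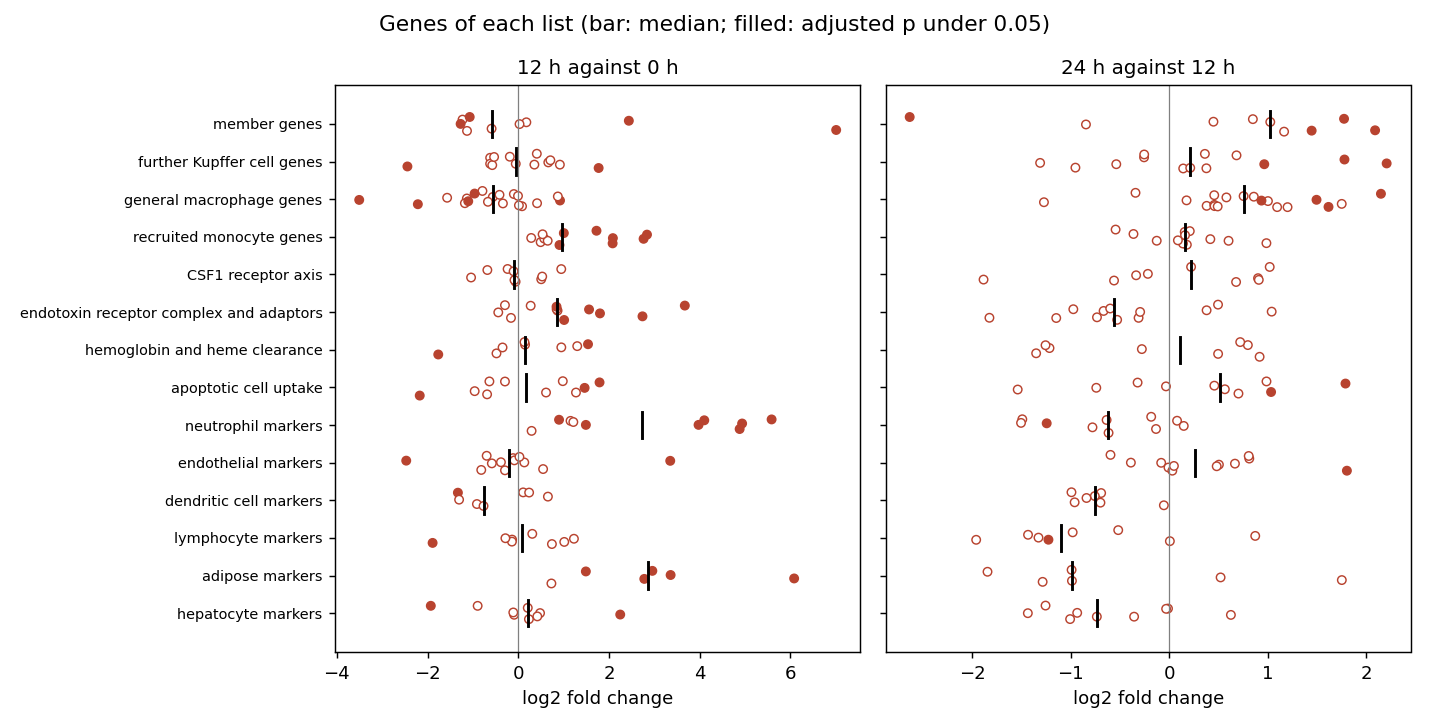
Log2 fold change of each measured gene of 14 lists (rows) at 12 h against 0 h (left) and at 24 h against 12 h (right). Filled points had an adjusted p under 0.05, and black bars mark list medians. The general macrophage median lies at -0.56 on the left and 0.76 on the right, while neutrophil, adipose and recruited monocyte points lie mostly right of 0 at 12 h.

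Likeness of course was described for 4 members by Pearson correlation of log2 values over 12 arrays that share time points and slides. Each member was set against all others among 16526 named coding genes. Csf1r lay closest to C1qa, a complement subunit made by macrophages (0.966), Tbxas1 (0.966) and Aif1 (0.962). Marco lay closest to Rasl10b (0.961), Bmx (0.957) and Ms4a6c (0.957), and Cd14 to Hdc, which makes histamine (0.993), Il1r1 (0.985) and Ier3 (0.980). Over the 11 arrays without 24 h replicate 2, Csf1r lay closest to Ifi30 (0.987), Ly6e (0.985) and Axl (0.985), Marco to Ifnab (0.966), Bmx (0.964) and Zbp1 (0.962), and Cd14 to Hdc (0.994), Synpo (0.984) and Il1r1 (0.983). For Clec4f the order changed with that array: Gimap7 (0.986), Olfr821 (0.977) and Zfp987 (0.976) over 12 arrays, and Akap5 (0.960), Unc5cl (0.949) and Gimap7 (0.936) over 11.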

How the data were processed

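Liver RNA of 12 mice was hybridised to 1-colour (Cy3) Agilent arrays. Scans were read with Agilent Feature Extraction 10.5.1.1, per the file headers. For each spot the deposited files give a processed intensity, from which the scanner software had removed background and spatial trend, and the median pixel intensities of spot and background. The labels say that 3 mice were analysed at each time. Of 39448 spots per array, 37831 (37246 probes) were no controls. Outlier spots were dropped, spots of 1 probe averaged, and log2 of the processed intensity was taken minus the array's 75th percentile. The 31168 probes well above background on at least 3 of 12 arrays were kept, and 22216 probes were named by accession. Control spots were left out.

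limma 3.58.1 (R 4.3.3) fitted 1 mean per time to all arrays with empirical Bayes moderation, two-sided, with Benjamini-Hochberg adjustment over all kept probes. Its spread is pooled over the 4 times, so 24 h replicate 2 enters every comparison. Errors after ± are standard errors of a fold change or, where marked, SD. The number of arrays, 3 per time, limits the precision.

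The genes, lists and alternatives were chosen with earlier results of these data known. Named genes were all members and, from each of 13 other lists and each comparison, up to 4 genes past the threshold with the smallest adjusted p, or the single smallest where none passed, and the 3 genes most correlated with each of 4 members. Not all of these are printed, 1 general macrophage gene that fell at 12 h is not reported here, and Tlr4, Ly96 and the ratios to Csf1r were added after their values were seen. The alternatives were normexp background correction (offset 50), quantile normalization, the authors' deposited log2 values (20271 probes, normalization not given in the sources used here), no filter and a filter on all 12 arrays, robust moderation with a trend, array weights, replicate and slide blocks, coding-probe centring, fits restricted to a comparison's 2 groups, and leaving out each array. The fit was tested on simulated data, and the outcome is not reported here. Replicate numbers gave no consistent sign of pairing mice across times. Of 18 same-number pairs of arrays, deviations from the group means correlated between -0.42 and 0.41, with 2 over 0.1. Slides and outlying arrays also enter these deviations, so the check cannot exclude a pairing.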

Additional observations from a re-analysis of the deposited data

How the results depend on the processing

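Across the 11 other settings (no fit of only the 2 groups for the F test), the numbers of the 9 genes past the threshold moved as follows. At 1.5 h against 0 h, array weights passed 2 genes, in a fit that passed 11865 of 31168 probes. At 12 h against 0 h, normexp, no filter and the replicate block passed 2 each and the slide block 1, against 4 as reported, quantile normalization 4, array weights and the fit of only the 2 groups 6 each, and the other 4 settings 5 each. Of all 31168 probes, 4775 passed there as reported. Normexp passed 673, the slide block 1295, array weights 18224 and the fit of only the 2 groups 15587. At 24 h against 0 h, array weights passed 5, and the slide block and the fit of only the 2 groups passed 0, and the filter on all 12 arrays 3. Of all probes array weights passed 8761 there, the slide block 83 and the fit of only the 2 groups 121, against 1701 as reported. At 24 h against 12 h, normexp and the fit of only the 2 groups passed 0, the replicate block 1, no filter 2, quantile normalization and the authors' values 5 each and array weights 7, and the F test passed 2 with normexp and 9 with array weights. Between 24 h and 12 h, 4063 of all probes passed as reported. Normexp passed 191 of them, the fit of only the 2 groups 0, the replicate block 1261 and array weights 10604. Leaving out 1 array at a time gave 0 to 1, 2 to 6, 1 to 3 and 0 to 5 genes in the 4 comparisons and 2 to 6 in the F test. The replicate block, a pairing by number of which the arrays gave no consistent sign, passed 0, 2, 2 and 1 genes, and 3 in the F test. The causes were not tested.

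Over the 11 settings Cd14 passed in 11 and Marco in 10 at 12 h, Csf1r in 7, Vsig4 in 6 and Adgre1, not called as reported, in 7. At 24 h against 0 h Cd14 and Marco passed in 9 each, and at 24 h against 12 h Adgre1 passed in 9, Vsig4 in 8, and Cd14 and Cd163 in 7 each. Normexp passed fewer probes in every comparison. No called gene changed direction. Uncalled values that changed sign were, at 1.5 h, Cd163 (-0.097 with normexp, -0.18 with quantile normalization and the authors' values, -0.082 with array weights), Timd4 (-0.083, -0.16, -0.16 and -0.13 in those settings) and Csf1r (-0.011 with array weights). At 12 h they were Timd4 (0.037 with normexp, 0.19 with the slide block), Cd163 (-0.37 with quantile normalization and the authors' values, -0.015 with coding centring) and Clec4f (-0.052 with the slide block). At 24 h against 0 h they were Timd4 (-0.064 with normexp) and Csf1r (0.049 with array weights, 0.62 with the slide block), and at 24 h against 12 h Timd4 (-0.10 with normexp) and Marco (-0.16 with the slide block). Leaving out 1 array, uncalled values crossed 0 at 1.5 h for Adgre1 (-0.046 to 0.58), Cd163 (-0.16 to 0.36), Csf1r (-0.066 to 0.48), Timd4 (-0.18 to 0.17) and Vsig4 (-0.0034 to 0.36), at 12 h for Cd163 (-0.18 to 0.27), and at 24 h against 0 h for Cd5l (-0.79 to 1.06) and Csf1r (-0.55 to 0.027).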
